A study of Chlamydomonas reinhardtii with 4 samples.

Results

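Silver nanoparticles (AgNPs) were set against their control after 2 h in the unicellular green alga Chlamydomonas reinhardtii. The comparison holds 2 of the 4 libraries of the study, 1 from a culture given 0.5 mg/L AgNPs for 2 h and 1 from the untreated culture of the same time, and both groups were wild-type strain FACHB-1121 grown in TAP, a medium that contains acetate, at 25°C in the light with shaking. The other 2 libraries are the same pair at 12 h. Values were FPKM, fragments scaled to transcript length and library size, for 17741 genes. A gene was compared when its FPKM averaged 5 or more over both 2 h libraries, which kept 3159 genes, and the measure was the log2 ratio of FPKM + 1, AgNP over control, with the median gene set to 0, and all ratios below are on this centred scale unless another is named. The labels name no clone, pool or second culture, and there was 1 library per group, so differences are sizes between 2 libraries, with no error and no test. In such bulk RNA, fewer cells in a state and less RNA per cell cannot be told apart.

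Background helps to read the gene groups. In this alga copper sits in plastocyanin, which carries electrons to photosystem I, and in cytochrome oxidase. When copper is short, the regulator CRR1 turns on genes for a copper-free cytochrome c6 (CYC6), for copper uptake and for enzymes of chlorophyll synthesis. The cell also builds a glycoprotein wall rich in pherophorins and bears a pair of cilia, and its plastid fixes carbon with the help of a carbon-concentrating mechanism.

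The FPKM of all genes summed to 492502 in the control and 1252800 in the AgNP library, and the 50 most abundant genes held 56.6% and 65.4% of these sums. The median compared gene stood at 11.3 and 14.7 FPKM, and before centring its log2 ratio was 0.45. Depth is unknown. The steps between values below 0.2 FPKM would put the AgNP library at 0.566 of the control's depth, but 14.0% of 1453 such genes lay within 0.05 (log2) of that ratio, so the estimate is weak. All 9 of 9 markers of vegetative cells were compared. The 7 photosynthetic ones were abundant in both libraries, from RCA1 (196 and 265 FPKM) to RBCS2, the small subunit of Rubisco (6328 and 16155), while the tubulin markers TUB1 and TUB2 were at most 32.0 FPKM and lower with AgNPs. Of 14 markers of gametes and zygotes 8 were found in the tables and summed to 24.6 FPKM in the control and 3.18 with AgNPs. Most of that was GAS28 and GSP1 (6.03 and 2.52 FPKM), and FUS1, EZY1 and ZYS3 were listed at 0 in both libraries. The part of gamete-state cells in the results was not tested.

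With AgNPs 191 genes stood at least 2-fold higher (6.05% of the genes compared) and 244 at least 2-fold lower (7.72%), while 2724 lay within 2-fold. The middle part of the distribution was narrow, with quartiles of -0.46 and 0.47. Past 4-fold there were 16 higher and 17 lower genes, and past 16-fold 6 and 2. The higher genes were short and abundant, with a median span (introns included) of 2238 bp and a median of 101 FPKM in the AgNP library, against 5106.5 bp and 6.58 FPKM for the lower genes and 3279 bp for all genes compared. Of the higher genes 45 stood under 5 FPKM in the control and passed the filter through the AgNP library, and 86 of the lower genes stood under 5 FPKM with AgNPs. Just inside the filter LSM1 stood at 4.96 and 5.05 FPKM, and just outside it PUF4 stood at 5.58 and 4.41. The split rests on centring: without it 678 genes were higher (21.5%) and 69 lower (2.18%), and with both libraries scaled to equal sums 20 were higher (0.633%) and 1074 lower (34%).

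**Figure D1:**
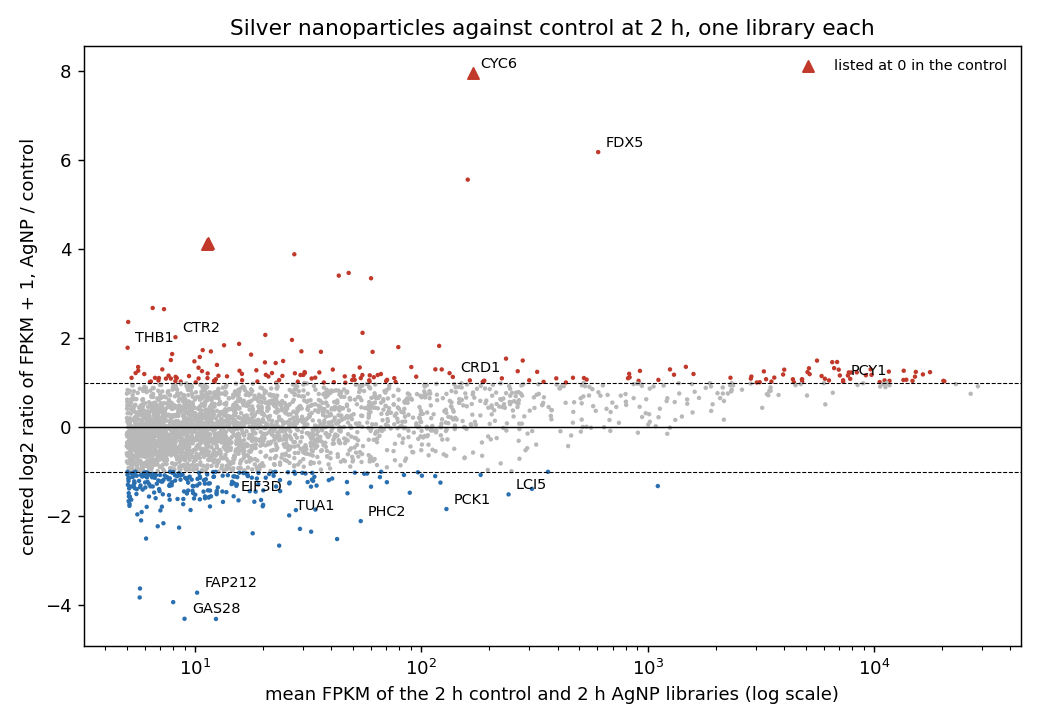
Each point is 1 of the genes compared; the x axis is the mean FPKM of both 2 h libraries on a log scale and the y axis the centred log2 ratio. Red points are at least 2-fold higher and blue at least 2-fold lower, triangles are genes listed at 0 in the control, whose height depends on the added 1 FPKM, and Cre14.g634279 is left out. CYC6 and FDX5 stand far above the other genes with a symbol, and in the most abundant eighth of genes, from 103 FPKM on, 22.0% are at least 2-fold higher.

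Genes known from copper deficiency stood highest among the genes with a symbol. CYC6 (Cre16.g651050, chromosome 16, 1238558 to 1240109) was listed at 0 in the control and stood at 339 FPKM with AgNPs. The ferredoxin gene FDX5 (Cre17.g700950, chromosome 17, 704737 to 706717), whose protein serves in copper-deficient and anaerobic cells, stood at 11.0 and 1199 FPKM, 109-fold apart in FPKM and 72.8-fold on the centred scale. The main leaf-type ferredoxin gene PETF stood at 2099 and 4730.0 FPKM, so the ratio of PETF to FDX5 in FPKM went from 190.0 in the control to 3.95 with AgNPs. Plastocyanin transcripts were not lower. PCY1 stood at 3802 and 10814 FPKM, and with AgNPs it was 31.9 times as abundant per length as CYC6.

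Among the copper importer genes 1 of 3 compared passed 2-fold. CTR2 (Cre10.g434350, chromosome 10, 2263855 to 2268812) stood at 1.81 FPKM in the control and 14.6 with AgNPs, 8.09-fold apart in FPKM and 4.07-fold on the centred scale. CTR1 stood at 2.61 and 7.71 FPKM and CTR3 at 3.11 and 7.74, and their centred ratios of 0.82 and 0.64 stayed under 2-fold, since both the added 1 FPKM and the centring lower the ratio of such genes. CTR4 (0.979 and 0.944 FPKM) and the copper ATPase genes CTP1 (2.71 and 3.18) and CTP3 (2.70 and 2.12) were under the filter. The copper chaperone genes ATX1 and COX17 had ratios of 0.55 and 0.02.

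The regulator and the oxidase pair of chlorophyll synthesis went different ways. CRR1 itself stood at 24.7 and 13.5 FPKM, a ratio of -1.28. CRD1 and CTH1 encode alternative forms of the cyclase that closes the fifth ring of chlorophyll, known as the forms of copper-deficient and copper-replete cells. CRD1 stood at 68.6 and 207 FPKM (ratio 1.13) and CTH1 at 102 and 65.9 (ratio -1.07). The ratio of CRD1 to CTH1 in FPKM was 0.673 in the control and 3.15 with AgNPs, and it does not depend on how the libraries were scaled. At 12 h it was 1.48 and 2.80. The coproporphyrinogen oxidase gene CPX1, another gene known from copper deficiency, had a ratio of -0.0045.

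Of 16 genes in the copper list 12 were compared, and 5 stood at least 2-fold higher (6.05% of all genes did) and 2 lower (7.72%), and the median ratio was 0.73, against 0 for all genes compared. The 5 were CYC6, FDX5, CTR2, CRD1 and PCY1. CYC6, CTR1, CTR2 and CTR3 passed the filter only through the AgNP library, where they are high, so their counts are a description. With the slope on gene span taken out, which leaves 4.53% of all genes higher, 5.16% lower and 9.69% past 2-fold in all, 5 were again higher and 1 lower, with CTR1 (1.16) in place of PCY1 (0.46), a gene of short span, and with CRR1 at -0.82. Against the 12 h control, where 8.48% of all genes were higher and 7.69% lower, 8 of the 12 were higher and 0 lower, and CTH1 was then at 1.08. The 2 h and 12 h controls differ in growth time, and the comparison shares its AgNP library with the main one.

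**Figure D2:**
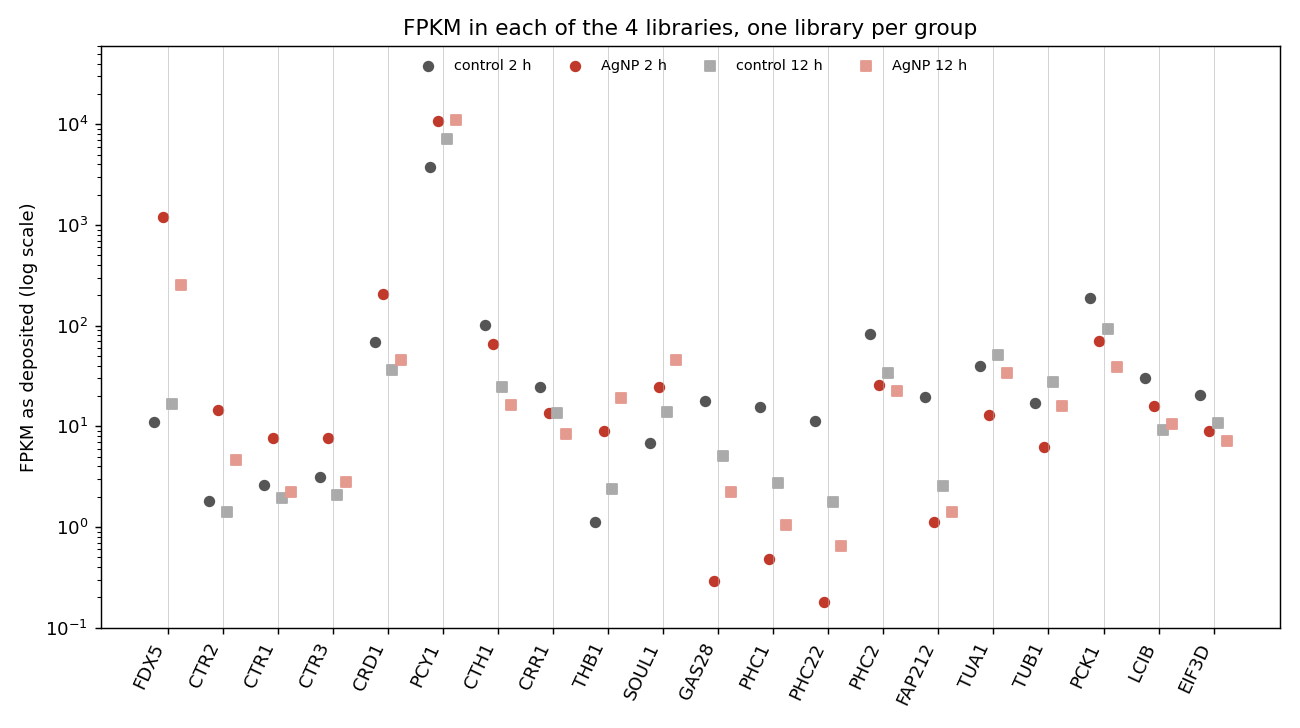
FPKM as deposited (log scale) of 20 genes in the 4 libraries; circles are the 2 h and paler squares the 12 h libraries, grey for control and red for AgNP. FDX5 and CTR2 stand above both controls in both AgNP libraries, while for GAS28, PHC1 and PHC22 the 2 h control stands above the other 3 libraries.

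Among the hemoglobin and SOUL genes 2 stood higher. The truncated hemoglobin gene THB1 stood at 1.11 and 8.98 FPKM (ratio 1.79). The genes of heme-binding SOUL proteins stood at 6.79 and 24.7 for SOUL1 and 5.97 and 16.3 for SOUL2. Of 8 such genes 3 were compared and 2, THB1 and SOUL1, were at least 2-fold higher (6.05% of all genes were). Against the 12 h control 1 was (8.48% of all genes were), with THB1 at 1.26 and SOUL1 at 0.47. With a pseudocount of 5 FPKM 0 were, and THB1 passed the filter only through the AgNP library. Among those under the filter THB4 went the other way, with 3.63 and 1.90 FPKM, and THB2 was listed at 0 in both.

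Genes of the cell wall held the 3 lowest ratios among genes with a symbol. GAS28 (Cre11.g481600, chromosome 11, 3554838 to 3557651), a hydroxyproline-rich glycoprotein gene known from gametes, stood at 17.7 FPKM in the control and 0.293 with AgNPs. The pherophorin gene PHC1 (Cre17.g717900, chromosome 17, 2693361 to 2696479) stood at 15.6 and 0.483, and PHC22 (chromosome 17, 66834 to 69000) at 11.2 and 0.178. The more abundant PHC2 and PHC3 stood at 82.6 and 25.5 and at 119.6 and 58.4 FPKM, and PHC5 at 9.28 and 2.29. Only PHC15 stood higher among the 6 pherophorin genes compared, with 60.9 and 137 FPKM and a ratio of 0.71.

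Of the pherophorin genes under the filter 4 showed large gaps. PHC21 stood at 8.67 FPKM in the control and 0.657 with AgNPs, PHC12 at 6.92 and 0.642, PHC4 at 5.63 and 0.442, and PHC19 at 5.14 and 0.256. PHC8 (1.48 and 3.01) and PHC9 (0.347 and 0.491) were higher with AgNPs, and PHC7, PHC11 and PHC18 were under 0.5 FPKM in both libraries. In all 15 pherophorin symbols were found, 11 had a mean of at least 1 FPKM, and 9 of these 11 were lower with AgNPs. In the band of 1 to 5 FPKM 4 of 5 pherophorin genes were at least 2-fold lower on the same centring, against 15.5% of all 4866 genes in that band, of which 0.781% were higher.

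Transcripts of several wall genes were below their 2 h control level at 12 h, with and without AgNPs. GAS28 then stood at 5.08 FPKM without and 2.23 with AgNPs, PHC1 at 2.76 and 1.04, and PHC22 at 1.77 and 0.650. PHC2 stood at 33.7 in the 12 h control. The 12 h control differed from the 2 h control in many genes (13.3% at least 2-fold higher, 12.2% lower), and the wall list had a median of -1.65 between them; these share the 2 h control with the main comparison. Of 41 symbols in the wall list 9 were compared, and 7 were at least 2-fold lower (7.72% of all genes were) and 0 higher. GAS28, PHC1, PHC22, PHC5 and VSP1 (7.76 and 2.52 FPKM) were under 5 FPKM with AgNPs. They passed the filter only through the control, where they are high, so their counts are a description. The median of the list was -2.10, and it was -1.84 without the span trend and -0.70 against the 12 h control. The matrix metalloprotease genes, known from the release of the wall, could not be compared, since 11 of 12 averaged under 1 FPKM and the other under 5.

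Tubulin genes were lower as a group. TUA1 stood at 39.3 and 12.9 FPKM, TUA2 at 41.1 and 14.8, TUB1 at 17.1 and 6.21 and TUB2 at 32.0 and 15.7. All 4 of 4 compared were at least 2-fold lower (7.72% of all genes were). They were so also without the span trend and against the 12 h control, where they stood at 51.1, 40.8, 27.4 and 51.9 FPKM. The alpha and the beta genes are near-identical pairs, so reads shared within a pair cannot be separated.

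Genes of flagella-associated proteins lay low less uniformly. Of 216 such symbols 25 were compared, with 7 at least 2-fold lower (7.72% of all genes were), 0 higher and a median of -0.50. FAP212 stood at 19.4 and 1.11 FPKM, FAP292 at 7.51 and 2.68, FAP113 at 13.8 and 3.23, and FAP126 at 10.2 and 5.17. FAP212, FAP292 and FAP113 passed the filter only through the control, where they are high, so their counts are a description. In the 12 h control they stood at 2.53, 3.83 and 8.19 FPKM. The abundant FAP103 (776 and 1669) and FAP162 (382 and 856) had positive ratios under 2-fold. In the band of 1 to 5 FPKM 36 of 77 were at least 2-fold lower (46.8%, against 15.5% of all genes in the band) and 0 higher, and 114 were below 1 FPKM. Both axonemal and transport lists were small, with 5 and 3 genes compared, all below the median gene; the dynein gene ODA14 stood at 6.18 and 3.90 FPKM and the transport genes IFT20 and IFT27 had ratios of -0.41 and -0.18.

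Genes of the carbon concentration list, which was set by symbol, lay on both sides of the median gene. LCI5, the linker protein that gathers Rubisco in the pyrenoid, stood at 329 and 157 FPKM. LCIB and LCIC, partners in a complex around the pyrenoid, stood at 29.9 and 15.8 and at 26.9 and 13.2. LCI20 was the fourth lower gene (6.67 and 4.04), while LCI3 (3777 and 11567) and LCI7 (7.28 and 25.0) were higher. Of 39 symbols 20 were compared, 2 higher (6.05% of all genes were) and 4 lower (7.72% were), and the median was -0.08. Without the span trend 1 was higher and 3 were lower. The thylakoid carbonic anhydrase gene CAH3 (28.6 and 37.7) and the mitochondrial CAH4 and CAH5 had ratios of -0.06, 0.03 and -0.01. In the 12 h control LCIB and LCIC stood at 9.28 and 6.24 FPKM, below the 2 h AgNP library.

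In chlorophyll and heme synthesis single early and late steps were lower. HEM1, which encodes the glutamyl-tRNA reductase that opens the pathway, stood at 80.9 and 50.5 FPKM, and the protochlorophyllide reductase gene POR1 at 141 and 89.6. The magnesium chelatase genes CHLI1 (81.6 and 59.5), CHLD (55.7 and 51.6) and CHLI2 (72.5 and 87.3) lay within 2-fold. Of 20 genes compared 17 lay below the median gene. At least 2-fold lower were 3 (7.72% of all genes were), and 1, CRD1, was higher (6.05% were). The direction of the whole list turned with the control: its median was -0.335 against the 2 h control and 1.83 against the 12 h control, where HEM1 stood at 15.9 FPKM and POR1 at 18.0. Against the 12 h control 17 of the 20 were at least 2-fold higher (8.48% of all genes were) and 0 lower.

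Genes of acetate use and gluconeogenesis were mostly below the median gene. PCK1, which encodes phosphoenolpyruvate carboxykinase, stood at 187 and 71.0 FPKM, and the pyruvate carboxylase gene PYC1 at 10.7 and 3.38. The acetyl-CoA synthetase gene ACS3 stood at 297 and 204, aconitase ACH1 at 231 and 162, and malate synthase MAS1 at 296 and 247. Isocitrate lyase ICL1, with 1064 and 1445 FPKM, had a ratio of -0.01. The list of 25 genes does not hold PYC1, and all 25 were compared. Of these 21 lay below the median gene, 2 (PCK1 and FUM1) were at least 2-fold lower and 0 higher. That share of lower genes is near the 7.72% of all genes. The median was -0.42, and -0.24 without the span trend, where 1 was lower. PYC1, with a span of 28615 bp, is a long gene, and its ratio of -1.87 became -0.60 without that trend.

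Fermentation genes did not stand as high as FDX5. The hydrogenase gene HYDA1 stood at 7.94 and 12.8 FPKM (ratio 0.17). ADH1, which encodes an alcohol and acetaldehyde dehydrogenase, stood at 26.0 and 10.6, and the pyruvate formate-lyase gene PFL1 at 40.1 and 22.9, though PFL1 turned to 0.31 without the span trend. HYDA2 and HYDEF were under 1 FPKM in both 2 h libraries.

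Within the machinery of translation, ribosomal protein genes and factor genes lay on opposite sides of the median gene. All 67 cytosolic ribosomal protein genes compared lay above it, with a median of 1.04. At least 2-fold higher were 40 of them (6.05% of all genes were), and 0 were lower. In the most abundant eighth of all genes 22.0% were higher. The cytosolic ribosomal protein genes held 54.8% of all FPKM in the control and 61.2% with AgNPs. Reads shared between near-identical ribosomal protein or histone copies, or between strands, cannot be separated. Without the span trend 18 were past 2-fold and the median was 0.79, without the trend with expression level the median was 0.03, with equal sums it was 0.15, and against the 12 h control 0 were, with a median of -0.04.

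Translation factor genes lay low. Of 24 compared 22 lay below the median gene, and the median of the list was -0.51. At least 2-fold lower were 7 of the 24 (7.72% of all genes were), and 0 were higher. The initiation factor 3 subunit genes EIF3D (20.6 and 9.07 FPKM), EIF3E (15.8 and 7.55) and EIF3C (12.3 and 7.05) were among the 7. So were EIF6, which acts on the large ribosomal subunit (12.7 and 5.98), and EIF4E, which binds the mRNA cap (26.6 and 17.7). Of the 10 EIF3 subunit genes 9 lay below the median gene, and EIF3K (55.2 and 116) was the exception. Without the span trend 5 of the 24 were lower, with a median of -0.41, and against the 12 h control 1, with a median of 0.03. The plastid ribosomal protein genes, 35 compared, had a median of 0.38 with 1 higher (6.05% of all genes were), PRPL29 (399.7 and 1258). The 25 mitochondrial ones had a median of 0.06 with 0 past 2-fold.

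Few redox genes passed 2-fold. Glutathione peroxidase genes GPX1 (4.95 and 17.8 FPKM) and GPX5 (156 and 444) were at least 2-fold higher. They were 2 of the 9 peroxiredoxin and glutathione peroxidase genes compared (6.05% of all genes were higher). Without the span trend 0 of the 9 were, with GPX1 at 0.96 and GPX5 at 0.73, and with a pseudocount of 5 FPKM 1 was. GPX1 passed the filter only through the AgNP library. The methionine sulfoxide reductase genes MSRA3 (8.87 and 22.6) and MSRA4 (41.1 and 97.8) had ratios of 0.81 and 0.78, and MSRA1, under the filter, stood at 1.34 and 4.92. Of 20 thioredoxin, glutaredoxin and glutathione genes 0 passed 2-fold, and GSH1, for the first step of glutathione synthesis, lay lowest at -0.68. Catalase CAT1, ascorbate peroxidase APX1 and iron superoxide dismutase FSD1 lay at -0.58, -0.69 and -0.54, while manganese superoxide dismutase MSD1 lay at 0.00 and APX2 at 0.25. Of the 6 genes compared in that list 3 lay above and 3 below the median gene, and 0 passed 2-fold. MSD3 (0.783 and 2.64 FPKM) and CAT2 (0.212 and 0.749) were under the filter and higher with AgNPs, at low values. The GPX1 and GPX5 ratios were -0.23 and -0.30 against the 12 h control.

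Genes for iron and zinc lay on both sides of the median gene. Iron uptake genes lay low or near the filter: the ferroxidase gene FOX1 stood at 11.0 and 9.32 FPKM, FEA1 at 11.4 and 10.4, and the permease gene FTR1 at 5.75 and 4.23. The ferritin gene FER1 stood at 37.4 and 60.4, and the ZIP transporter gene ZIP3 at 4.48 and 13.9, with a ratio of 0.99. Of 7 compared 0 were past 2-fold.

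Chaperone genes lay below the median gene in 26 of 30 cases, with 3 at least 2-fold lower (7.72% of all genes were) and 0 higher. Without the span trend 1 was lower, and against the 12 h control 1 was and the list's median turned from -0.46 to 0.25. The plastid disaggregase gene CLPB3 stood at 7.70 and 2.60 FPKM and HSP70C at 23.1 and 15.1, while the small co-chaperonin CPN10 (84.8 and 217) lay highest. Cytosolic HSP70A (44.2 and 33.7) and HSP90A (32.5 and 24.7) were within 2-fold. The small heat shock genes HSP22E (6.66 and 2.31) and HSP22F (7.79 and 1.20) lay just under the filter, and HSP22A, HSP22G and HSP22H were listed at 0 in both 2 h libraries.

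**Figure D3:**
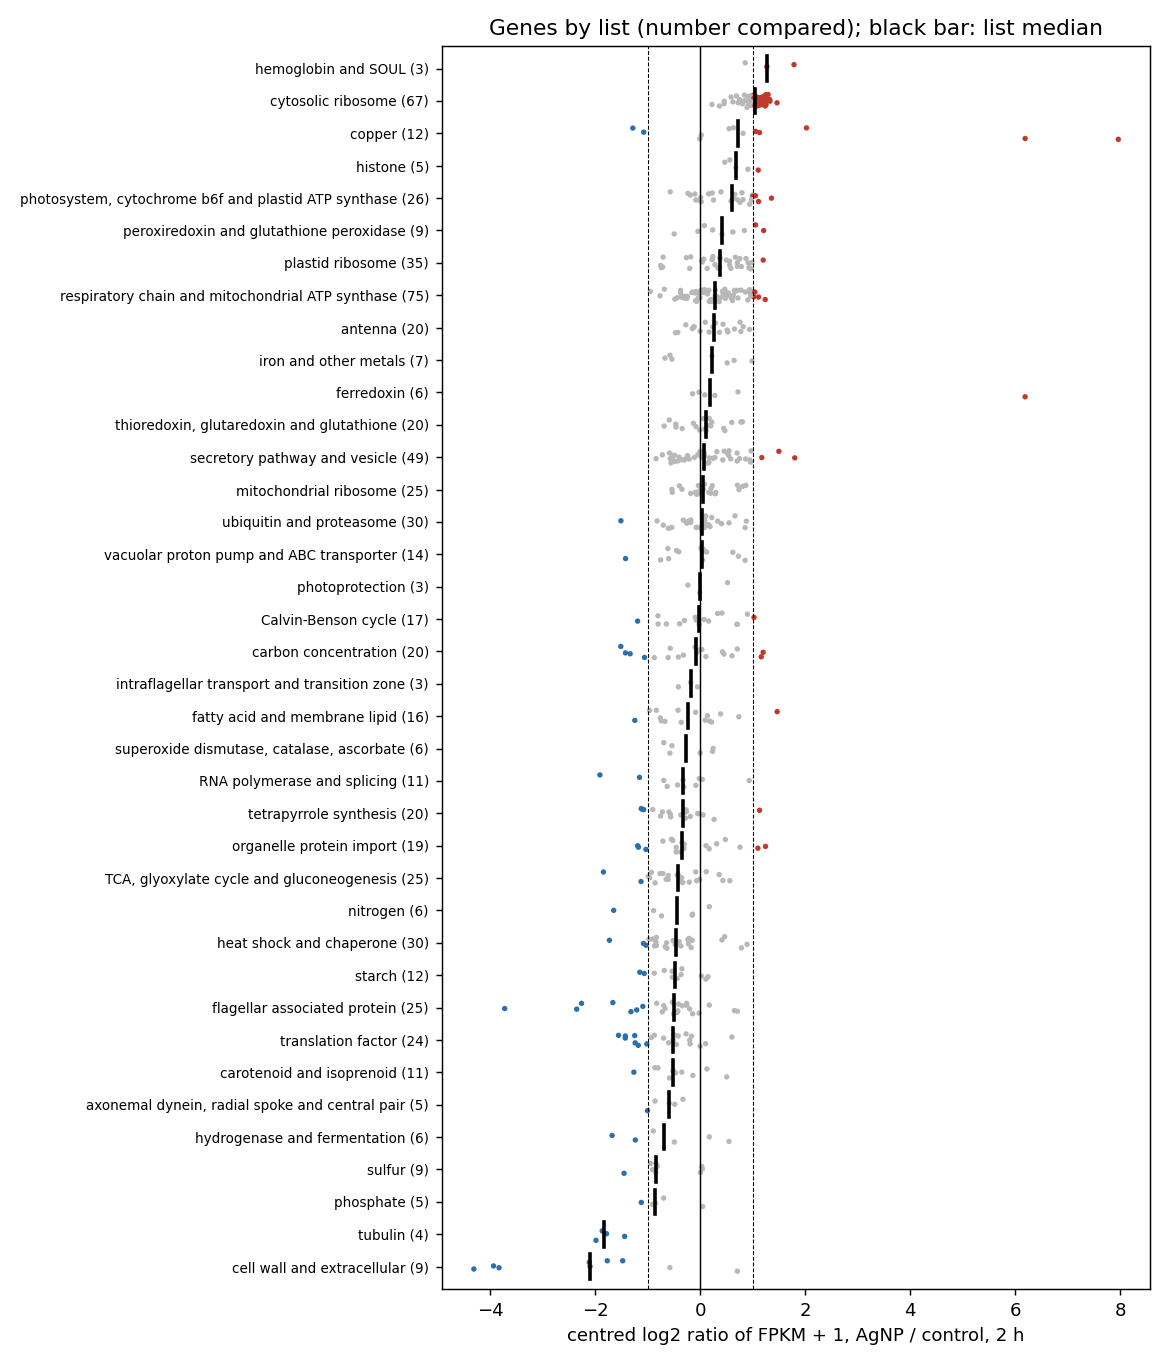
Centred log2 ratios (x axis) of the genes compared in 38 lists, ordered by median; each point is 1 gene, red and blue mark genes at least 2-fold higher and lower, and black bars are medians. Lists of wall and tubulin genes lie lowest, at medians of -2.10 and -1.82, and the cytosolic ribosome and the hemoglobin and SOUL lists highest, at 1.04 and 1.27, the last from 3 genes.

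Other metabolic lists held single low genes. The sulfur list had a median of -0.84 over 9 genes, with the cystathionine synthase gene CGS1 at 25.0 and 12.1 FPKM. The ferredoxin-dependent glutamate synthase gene GSF1 stood at 22.1 and 9.09, the phytoene desaturase gene PDS1 at 15.1 and 8.18, and the desaturase gene FAD7 at 33.5 and 18.9. Photosystem, cytochrome b6f and plastid ATP synthase genes had a median of 0.61 with 4 of 26 higher (6.05% of all genes were). The 20 antenna genes had a median of 0.27 with 0 past 2-fold. Without the span trend 1 of the 26 and 1 of the 20 were higher (4.53% of all genes were), and the medians were 0.11 and 0.05. Without the trend with expression level both medians turned negative, to -0.15 and -0.45. In the secretory list 3 of 49 were higher, a share near the 6.05% of all genes, and 0 lower: VPS46, a gene of membrane scission (26.8 and 132), the translocon subunit gene SEC61G (115 and 447) and TRS33 (13.8 and 44.7). Outside that list the clathrin light chain gene CLC1 stood at 52.3 and 179. The acyl carrier protein gene ACP2 stood at 2876 and 10870.5 and the Rieske protein gene PETC at 655 and 2297. The spliceosome gene PRP8 (span 16381 bp) stood at 8.996 and 2.64, and its ratio of -1.91 became -0.98 without the span trend.

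Genes without a symbol made up 116 of the higher and 144 of the lower genes. Cre01.g029700 (chromosome 1, 4388403 to 4390175) stood at 3.91 and 317 FPKM, but at 60.0 in the 12 h control. Cre07.g346900 (chromosome 7, 4987085 to 4990515) stood at 1.68 and 53.3, with 0.577 and 5.26 at 12 h. Cre10.g437400 (chromosome 10, 2632792 to 2635112) was listed at 0 in both controls and stood at 23.0 and 15.1 with AgNPs at 2 h and 12 h. Cre10.g453850 (chromosome 10, 4797898 to 4801487) was likewise at 0 in both controls, with 22.6 and 3.64. These and CYC6 are 3 of the 4 compared genes listed at 0 in the 2 h control, and 0 were listed at 0 with AgNPs.

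The lowest genes without a symbol were Cre17.g710300 (chromosome 17, 1905236 to 1908962), at 24.1 and 0.726 FPKM, and Cre16.g693601 (chromosome 16, 393606 to 395969), at 11.1 and 0.341. Both were also low at 12 h without AgNPs, at 4.47 and 2.37. Of 103 lower genes with a compared neighbour 14 had a lower one beside them (13.6%), against 8.24% of all 1371 genes with such a neighbour; the difference was not tested. Among these 7 adjacent pairs were FAP212 with Cre02.g077800 (46.1 and 12.2 FPKM) and PHC5 with Cre05.g238687 (14.4 and 4.78), and 1 pair, Cre06.g292249 and Cre06.g292282, occupies overlapping loci, so its reads cannot be separated. For higher genes the share was 2 of 81 (2.47%, against 6.64%). Across chromosomes with at least 50 genes compared, medians lay between -0.24, on chromosome 4, and 0.06, on chromosome 2.

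Ratios followed gene span and expression level. In the shortest eighth of genes (357 to 1785 bp) the median was 0.53 with 16.2% higher and 2.02% lower, and in the longest (6097 to 43950 bp) it was -0.53 with 1.77% higher and 24.1% lower. By level, the highest eighth had a median of 0.67 with 22.0% higher and the lowest -0.28 with 1.77%. Both go together: among genes of short span and high level, each split at its median, 12.4% were higher and 2.48% lower, and among those of long span and low level 1.19% and 14.1%. The same slope with span stood between the 12 h pair and between the 2 controls, where the shortest and longest eighths had medians of 0.50 and -0.60 and of 0.58 and -0.50. Neither control had silver, and the 2 h control enters both that comparison and the main one. With the span trend removed 143 genes were higher and 163 lower, of which 93 and 129 were among the 191 and 244.

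**Figure D4:**
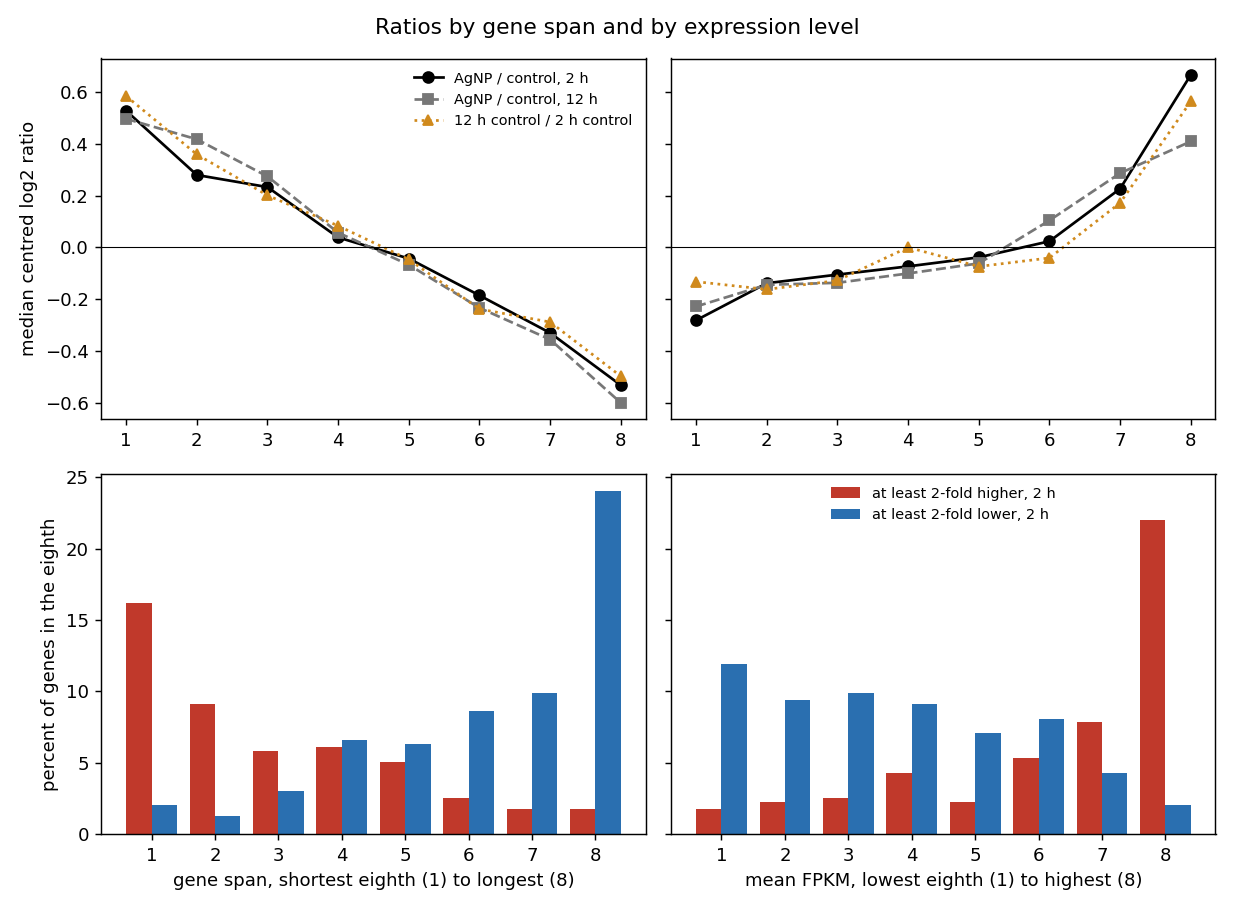
Upper panels: median centred log2 ratio per eighth of genes by span (left) and mean FPKM (right) for AgNP over control at 2 h, at 12 h, and for the 12 h over the 2 h control. Lower panels: percent of genes in each eighth at least 2-fold higher (red) or lower (blue) at 2 h; the share of lower genes reaches 24.1% in the longest eighth and the share of higher genes 22.0% in the most abundant.

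The 12 h pair uses other libraries of both kinds and so gives the same measure again, at another time. Among the same genes 3.55% stood 2-fold or more above the control at 12 h and 4.62% below (8.17% together). Of the 191 genes higher at 2 h 41 were higher at 12 h too, 21.5% of the 2 h and 36.6% of the 12 h list. Of the 244 lower genes 89 were lower at 12 h, 36.5% of the 2 h and 61.0% of the 12 h list, and 0 genes were past 2-fold in opposite directions. The 12 h pair holds the same slope with span, and its ratios here were not corrected for it. Past 2-fold in both pairs, without the span trend at 2 h and against the 12 h control were 19 higher and 18 lower genes. These settings share libraries. FDX5 (16.8 and 251 FPKM at 12 h), THB1 (2.36 and 19.3), PCK1 (93.5 and 39.0) and GAS28 (5.08 and 2.23) were past 2-fold at both times. CRD1 (36.1 and 45.9) and CTR2 (1.39 and 4.61) were past it at 2 h and at -0.05 and 0.84 at 12 h. Whether the effects differ between the times was not tested, as each rests on 1 pair of libraries.

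**Figure D5:**
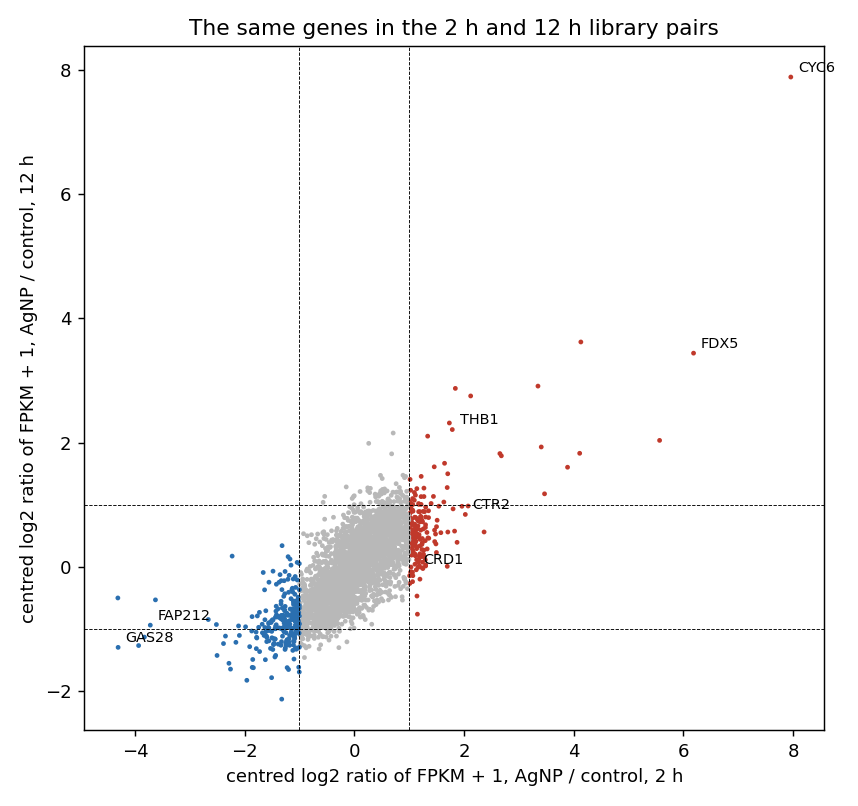
Centred log2 ratio of FPKM + 1, AgNP over control, at 2 h (x axis) and 12 h (y axis) for the genes compared except Cre14.g634279; red marks genes at least 2-fold higher and blue genes at least 2-fold lower at 2 h. CYC6 and FDX5 lie at the upper right, and no gene lies past the dashed 2-fold lines in the upper left or lower right corner.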

How the data were processed

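Each library has 1 table in which the authors deposited FPKM for every gene, as its header states. Cuffdiff appears among the tools of the submitters' processing notes. Aligner, genome build, filters and library scaling were not given in the sources used here. Gene loci in the tables count starts from 0 (17558 of 17738 matched starts equalled those of the RefSeq v5.5 gene table after 1 was added) and are printed 1-based. Gene symbols were those of the tables (2891 genes, 1172 of the 3159 compared).

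From these values the log2 ratio of FPKM + 1 was computed for genes averaging 5 FPKM or more over both 2 h libraries and centred on its median, and 2-fold differences were counted. No test was possible within a group of 1 library, so no p-value was computed. Without read counts no interval for counting error can be had. Adding 1 understates the change of low genes. Span trends were removed by lowess (fraction 0.5). The 41 gene lists were set by symbol pattern and 38 had at least 3 members compared; symbols of signal recognition, polyphosphate and other proteins that the patterns caught wrongly were then taken out by function. Members and lists were chosen with earlier results of these data known. Named genes are the 15 highest and 15 lowest with a symbol, the 6 highest and lowest without, up to 4 per list, all copper genes and up to 3 listed at 0; other genes named, such as those under the filter, were chosen after their values were seen. Promoter motifs and sequences were not analysed here. The code was checked on simulated data. Software was statsmodels 0.14.6 (lowess), pandas 2.3.3, numpy 2.4.6, matplotlib 3.10.9 and Python 3.11.15.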

Additional observations from a re-analysis of the deposited data

Results flagged for a closer look

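Cre14.g634279 (chromosome 14, 4144686 to 4147259) had ratios of opposite sign at the 2 times. In the 2 h control it was listed at 0, and it stood at 28098 FPKM in the 2 h AgNP library, against 38828 and 29051 FPKM at 12 h. The 12 h ratio minus the 2 h ratio was -15.13 on the centred log2(FPKM + 1) scale, a size that rests on the added 1 FPKM and is no bound. The difference was not tested. The gene was among the most abundant in the other 3 libraries, and an exact 0 in such a table can be a failed estimate, so the 0 is not read as absence of the transcript.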

How the results depend on the processing

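The counts of 191 higher and 244 lower genes stayed within 1.5 times with a pseudocount of 0.1 FPKM, without the span trend and with the 12 h control as the reference. Similar counts need not be the same genes: with the 12 h control, which shares the AgNP library, 33 of the 191 (17.3%) and 68 of the 244 (27.9%) were called again. A pseudocount of 5 FPKM gave 94 lower genes. Without a filter 849 genes were higher, and with a mean of at least 20 FPKM 29 were higher and 105 lower. Without centring 678 were higher and 69 lower, and scaling to equal sums gave 20 and 1074, so the excess in either direction depends on the scaling. Without the trend with expression level 122 were higher. Of 176 named genes, 1 past 2-fold changed sign without the span trend (PFL1, 0.31) and 26 with the 12 h control as the reference, a setting that also holds the difference in time between the controls: ASA9 -1.06, QCR9 -0.87, Cre14.g634279 -0.78, COX19 -0.40, GPX5 -0.30, HFO39 -0.28, GPX1 -0.23, RPL38 -0.21, TIM10 -0.11, SEC61G -0.11, TRS33 -0.0847, QCR7 -0.0695, RPL37a -0.0439, RPL13a -0.0191, HSP70C 0.26, MRP2 0.26, TOC75 0.33, FAD7 0.39, LCIB 0.40, GSF1 0.47, TIC20 0.54, LCIC 0.67, PDS1 0.99, CTH1 1.08, HEM1 1.30, POR1 1.94. The median of the cytosolic ribosome list was -0.0404 with that control. The other settings turned 0 named genes that were past 2-fold, but some smaller ratios did change sign. MSRA4 went from 0.78 to -0.10 with equal sums, and RBCS2 from 0.90 to -0.23 without the trend with expression level. With a mean of at least 20 FPKM only 91 of the 176 could be followed. No paired analysis was possible because the 2 h comparison holds 1 library per group, a single pair, and no test was made; a fit over both times with time as pairs addresses another comparison and was not made here. Low values are least certain: 45 of the higher and 86 of the lower genes stood under 5 FPKM in 1 library. The cause of these shifts was not tested.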

Other observations

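Several lists not described above also held genes past 2-fold between the 2 h libraries. Respiratory chain and mitochondrial ATP synthase genes, 75 compared, had a median of 0.29 with 4 higher, a share near the 6.05% of all genes, and 0 lower: the subunit genes QCR7 (98.6 and 275 FPKM), QCR9 (477 and 1347) and ASA9 (236 and 700.1) and the assembly gene COX19 (13.9 and 47.2). Of 19 genes for protein import into organelles 2 were higher (6.05% of all genes were) and 3 lower (7.72% were). Without the span trend 0 were higher and 1 was lower. The small mitochondrial import components TOM7 (153 and 498) and TIM10 (115 and 339) were higher, and the plastid translocon genes TIC20 (30.0 and 17.6) and TOC75 (11.7 and 6.72) were lower.

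In starch synthesis 2 of 12 genes were lower (7.72% of all genes were), and 0 were without the span trend. The 2 were the starch synthase genes SSS2 (9.82 and 5.68 FPKM) and SSS3 (10.9 and 6.77). In the Calvin-Benson cycle list the regulator gene CP12 (1862 and 5186) was higher and the transaldolase gene TAL1 (49.1 and 29.0) lower of 17 compared. Of 30 ubiquitin and proteasome genes 1, UBQ1 (10.1 and 4.34), was lower (7.72% of all genes were). Of 14 proton pump and ABC transporter genes 1, MRP2 (15.4 and 7.41), was lower. The channelrhodopsin gene COP3 stood at 12.1 and 6.56, a ratio of -1.25.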
